A study of Homo sapiens with 6 samples.

Results

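Autophagy is the pathway in which a cell encloses part of its own cytoplasm in a double membrane, the autophagosome, and delivers it to the lysosome for breakdown. The ULK1 kinase and the BECN1 lipid-kinase complex start the membrane, WIPI proteins bind the lipid that this kinase makes, and the enzymes ATG7 and ATG5 help to attach the small ubiquitin-like ATG8 proteins to it. ATG8 proteins fall into the GABARAP subfamily (GABARAP, GABARAPL1, GABARAPL2) and the LC3 subfamily (MAP1LC3B and its relatives), and they hold cargo receptors such as SQSTM1, also called p62, in the growing membrane. In lung carcinoma cells, as in other cells, the pathway recycles nutrients and removes damaged organelles and protein aggregates. The 10 genes named here were taken by symbol from the tables of the 6 libraries, which list 17789 symbols in all, and every one of the 10 was listed in all 6 libraries.

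The libraries came from A549, an established human non-small-cell lung cancer cell line grown in serum-containing medium. By their genotype labels, 3 are wild type controls and the other 3 are FOXD3 knockdown. FOXD3, a forkhead transcription factor, was targeted with a pool of siRNAs carried by Lipofectamine 2000, and the knockdown was examined after 72 h. The labels do not say whether the control wells received a non-targeting siRNA, when the RNA was taken, or whether replicates were separate cultures. The p-values below therefore measure the spread between these libraries, which may be technical.

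Expression is given as FPKM, which scales mapped fragments to transcript length and library size, with no read counts. The depth could not be fixed from the values. The spacing of low values in intronless genes was tried with 4 corrections to gene length, and the best spacing lay between 6350000 and 8300000 fragments in 4 libraries but moved between 6200000 and 32250000 in control replicate 2 and between 7850000 and 13900000 in knockdown replicate 3. No fragment number is therefore given for any gene, and the precision of low values is unknown. FOXD3 was at 0.152, 0.291 and 0.134 FPKM in the control libraries and was listed in 1 of the 3 knockdown libraries, at 0.0749 FPKM. The groups did not overlap, with an exact permutation p of 0.1 (two-sided), which 3 libraries against 3 cannot go below. Levels this low check the knockdown label only weakly. All 9 epithelial and A549 marker genes were detected, with KRT7, KRT8 and KRT18 above 1500 FPKM in every library. Their summed level was 7592 to 8542 FPKM in control and 10284 to 10292 FPKM in knockdown libraries. Of these 9, 6 rose (66.7%, against 25.6% of all tested genes), and CDH1 and KRT7 fell (22.2%, against 37.9%). Among the 6 were the aldehyde dehydrogenase gene ALDH1A1 (3.09-fold), the aldo-keto reductase gene AKR1B10 (1.93-fold) and the keratin gene KRT8 (1.56-fold). After median scaling 6 were higher and 0 lower, where 31.9% of all tested genes were higher and 31.6% lower. Of 6 lung lineage genes 5 were listed, with a sum of 1.54 to 2.16 FPKM in control and 2.92 to 4.15 FPKM in knockdown libraries, and 2 were tested. The club cell gene SCGB1A1 was at 0 in all 3 control libraries and at 1.72, 2.24 and 0.844 FPKM in knockdown libraries. It passed the filter of a mean of 0.5 FPKM only through its knockdown level, so its test is left out. The factor NKX2-1 stood at 1.16 to 1.65 FPKM and did not pass as deposited (limma adjusted p = 0.103) or after scaling to the total without small RNAs (0.0775). It passed as higher after median scaling (log2 change 0.26; limma adjusted p = 0.0421) and quantile normalization (0.50; limma adjusted p = 0.00202). The surfactant gene SFTPC was at 0 in 5 of 6 libraries. The summed level of 6 leukocyte markers was 165 to 183 FPKM in control and 91.8 to 95.0 FPKM in knockdown libraries. Nearly all of it was LCP1 and CD68. By the means LCP1 went from 95.2 to 25.5 FPKM, CD68 from 74.0 to 66.0 and CD14 from 2.92 to 1.25. All 3 tested were called lower (2 after median scaling), where 37.9% of all tested genes fell (31.6% after median scaling). The pan-leukocyte gene PTPRC stayed at or under 0.31 FPKM and CD3E was at 0 in 5 libraries. Fibroblast and endothelial marker sums stayed at or under 4.56 and 3.40 FPKM. The part of these markers in the results below was not tested. Small nucleolar RNAs held 4.83% of the FPKM total in knockdown replicate 2 and 0.975% to 1.92% in the others, and its part in the results was not tested beyond the fits that leave out this library or these RNAs, in which the same number of the 10 genes passed.

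The 3 GABARAP-subfamily genes have coding sequences of one length, 354 bases, so their first 90 coding bases can be set side by side. They are shown because the levels of these close relatives are compared below, and reads can be told apart only where the sequences differ. They are read on the coding strand from GENCODE 29 transcripts, and capitals mark bases that differ from GABARAP.
GABARAP: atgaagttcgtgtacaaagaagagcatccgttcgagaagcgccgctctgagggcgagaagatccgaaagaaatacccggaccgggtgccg
GABARAPL1: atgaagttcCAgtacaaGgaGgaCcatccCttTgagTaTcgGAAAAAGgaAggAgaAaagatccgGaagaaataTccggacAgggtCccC
GABARAPL2: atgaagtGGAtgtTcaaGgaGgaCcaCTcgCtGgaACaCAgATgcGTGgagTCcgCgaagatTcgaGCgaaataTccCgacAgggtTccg
In this stretch GABARAPL1 differed from GABARAP at 24 bases and GABARAPL2 at 30. Over the whole coding sequence GABARAP and GABARAPL1 were 76.8% identical, with a longest shared run of 14 bases, and GABARAP and GABARAPL2 were 63.0% identical, with a longest run of 8. MAP1LC3B shared 50.7% of its bases with GABARAP. By contrast it was 99.5% identical to MAP1LC3B2, an intronless copy, with a shared run of 307 bases, so how fragments were divided between MAP1LC3B and that copy is uncertain.

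Of the 10 genes, 7 fell in the FOXD3 knockdown libraries: ULK1, WIPI1, ATG7 and the 4 ATG8 genes GABARAP, GABARAPL1, GABARAPL2 and MAP1LC3B. BECN1, ATG5 and SQSTM1 did not pass the test and lay within 1.06-fold of control by mean FPKM. The changes that passed ran from 1.49-fold lower for GABARAPL2 to 5.32-fold lower for WIPI1. No gene of the 10 rose: limma's test gave 0 higher after adjustment and 0 at an unadjusted p under 0.05. In libraries from whole A549 cultures, a fall in some of the cells and a smaller fall in all of them cannot be told apart. FPKM is scaled to library size, so it does not give RNA per cell.

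These counts stand against a broad background. Across 13340 tested genes 63.5% passed limma's test at an adjusted p under 0.05, 37.9% as lower and 25.6% as higher in knockdown. Log2 changes are differences of mean log2(FPKM + 1), knockdown minus control. The median was -0.80 over the 10 genes and -0.09 over all tested genes. The groups of libraries did not overlap, with knockdown lower, in 8 of the 10 genes, and in 40.8% of all tested genes (69.1% counting either direction). Falls of at least 2-fold on that log2 scale were seen in 5.73% of tested genes, and among the 10 in WIPI1 and GABARAPL1.

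**Figure D1:**
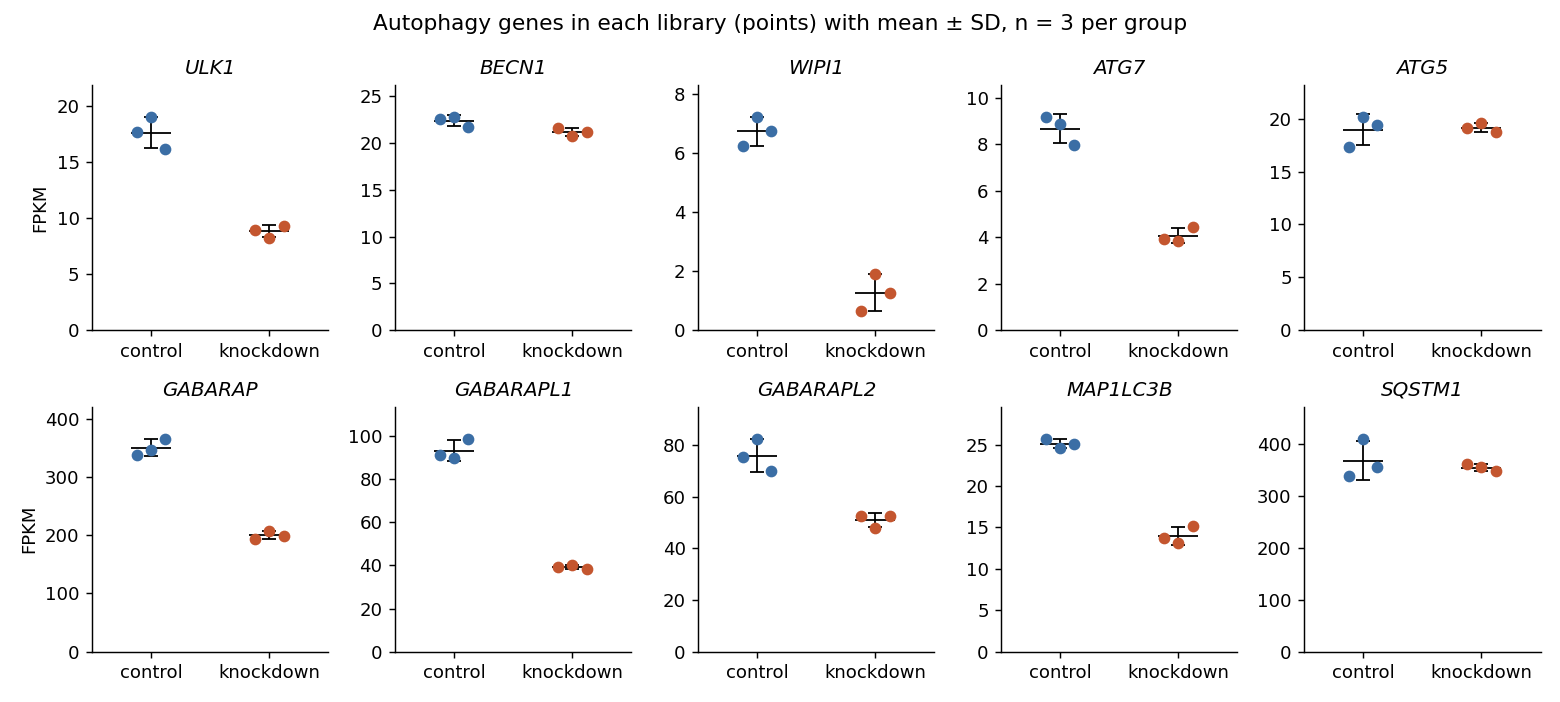
FPKM (vertical axis, starting at 0) of each of the 10 genes in the 3 control and 3 knockdown libraries; points are libraries and the bars are the mean ± SD, n = 3. Knockdown points lie below all control points for 8 genes, with the smallest gap for BECN1, and the groups overlap for ATG5 and SQSTM1.

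The initiating genes diverged. ULK1 (Entrez 8408, chr12:132379279-132407707, hg19), the serine/threonine kinase that starts autophagosome formation, had 17.7, 19.1 and 16.2 FPKM in the control libraries, in the order of replicates 1 to 3 used throughout, and 8.92, 8.27 and 9.30 FPKM in the knockdown libraries. The highest knockdown library was well below the lowest control library. The mean dropped from 17.7 ± 1.42 to 8.83 ± 0.523 FPKM (SD, n = 3). In log2 terms this was -0.92 (SE 0.077; limma adjusted p = 2.34e-05, by Benjamini-Hochberg over all tested genes). BECN1, or beclin 1 (Entrez 8678, chr17:40962150-40976310, hg19), the scaffold of the lipid-kinase complex, stood at 22.6, 22.8 and 21.7 FPKM in control and 21.6, 20.8 and 21.2 FPKM in knockdown libraries. The groups only just failed to overlap, and the log2 change of -0.07 did not pass (95% interval -0.19 to 0.041; limma adjusted p = 0.226). The ratio of BECN1 to ULK1 was 1.28, 1.20 and 1.34 in control and 2.42, 2.51 and 2.28 in knockdown libraries. All knockdown ratios were above all control ratios. This ratio and those of GABARAP to GABARAPL1 and SQSTM1 to MAP1LC3B below were chosen after the values had been seen. Each has a gene called lower as its denominator, so the ratios describe the libraries and no p-value is given for them.

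WIPI1 (Entrez 55062, chr17:66417422-66453653, hg19), which binds phosphatidylinositol 3-phosphate on the forming membrane, had the largest change of the 10. It stood at 6.25, 7.24 and 6.76 FPKM in control and at 0.641, 1.91 and 1.26 FPKM in knockdown libraries. No library of one group came near the other, although the knockdown libraries differed among themselves. Its SE was the largest of the 10 genes. The log2 change was -1.81 (SE 0.188; limma adjusted p = 7.51e-05), and -2.43 with a pseudocount of 0.1, since adding 1 FPKM shrinks the change of a low gene. In the authors' deposited table WIPI1 went from 6.40 to 1.32 FPKM with a false discovery rate of 0.480, on a wider locus from 66255323 to 66597095, so it was not called there. The 3 genes whose centred log2(FPKM + 1) profile over the 6 libraries lay nearest to that of WIPI1 were MCOLN3, an endolysosomal cation channel, at a Euclidean distance of 0.418, BBC3, a pro-apoptotic BCL2 relative, at 0.448, and NFKBIZ, a nuclear regulator of NF-kB, at 0.451.

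The conjugation enzymes also diverged. ATG7 (Entrez 10533, chr3:11314010-11599139, hg19), the E1-like enzyme that activates both ATG12 and the ATG8 proteins, stood at 9.18, 8.86 and 7.97 FPKM in control and 3.94, 3.82 and 4.42 FPKM in knockdown libraries. Every knockdown library was below every control library, and the log2 change was -0.93 (SE 0.084; limma adjusted p = 3.45e-05). Its locus shares 1596 bases with VGLL4, which went from 13.0 ± 1.08 to 6.56 ± 0.465 FPKM. The strand setting is not given in the sources used here, so reads in the shared bases cannot be assigned, and the part of VGLL4 in the change of ATG7 was not tested. ATG5 (Entrez 9474, chr6:106632352-106773695, hg19), which is joined to ATG12 and then directs ATG8 proteins to the membrane, stood at 17.4, 20.2 and 19.4 FPKM in control and 19.2, 19.6 and 18.8 FPKM in knockdown libraries. The knockdown values lay inside the range of the control values, and the log2 change of 0.02 did not pass (95% interval -0.13 to 0.17; limma adjusted p = 0.834).

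The 4 ATG8 genes that were well expressed all fell. GABARAP (Entrez 11337, chr17:7143738-7145753, hg19), whose protein acts mainly in late autophagosome maturation, was the most abundant. It stood at 337, 347 and 366 FPKM in control and at 194, 208 and 199 FPKM in knockdown libraries. The log2 change was -0.80 (SE 0.045; limma adjusted p = 3.93e-06). GABARAPL1 (Entrez 23710, chr12:10365489-10375724, hg19), its closest relative here, stood at 91.0, 89.7 and 98.8 FPKM in control and 39.2, 40.1 and 38.5 FPKM in knockdown libraries. The knockdown libraries lay close together and far below control, and the log2 change was -1.23 (SE 0.050; limma adjusted p = 1.07e-06). GABARAPL2 (Entrez 11345, chr16:75600249-75611779, hg19), also known as GATE-16, stood at 75.3, 82.5 and 70.1 FPKM in control and 52.4, 47.9 and 52.5 FPKM in knockdown libraries. It had the smallest fall of the 4, with a log2 change of -0.56 (SE 0.068; limma adjusted p = 0.000162). MAP1LC3B (Entrez 81631, chr16:87425801-87438380, hg19), the LC3 protein commonly used to mark autophagosomes, stood at 25.7, 24.6 and 25.1 FPKM in control and 13.7, 13.1 and 15.2 FPKM in knockdown libraries. The groups were far apart, and the log2 change was -0.80 (SE 0.066; limma adjusted p = 2.22e-05).

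**Figure D2:**
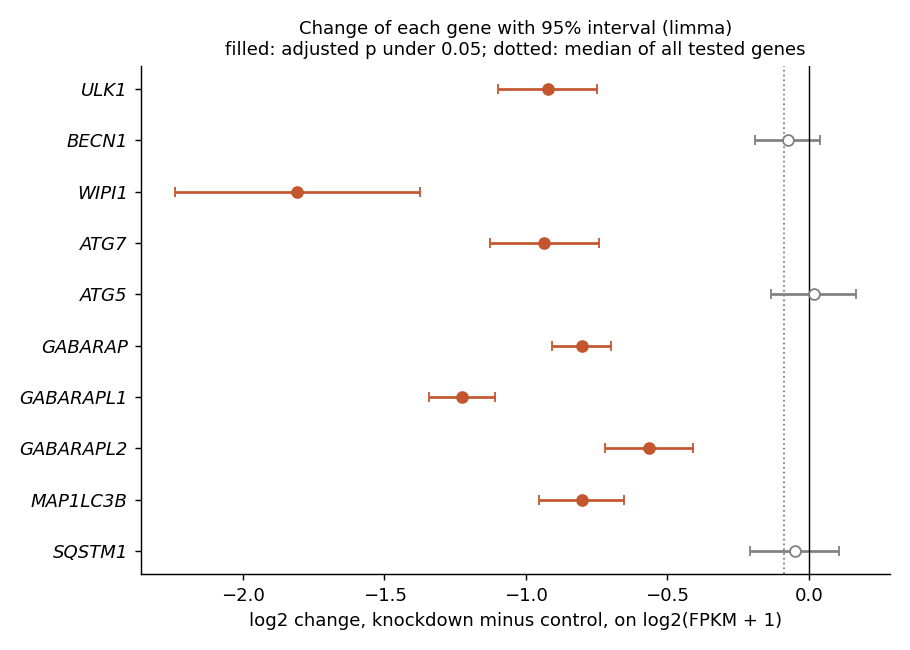
Log2 change of each of the 10 genes (horizontal axis; difference of mean log2(FPKM + 1), knockdown minus control), with its 95% interval from limma; filled points passed at an adjusted p under 0.05 and the dotted line is the median of all tested genes. The 7 filled points lie between -1.81 and -0.56, and the intervals of BECN1, ATG5 and SQSTM1 include 0.

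FPKM is scaled to length, so levels are set side by side between these genes, but only roughly. Other differences between genes in how reads are counted were not corrected, and the division between MAP1LC3B and MAP1LC3B2 is uncertain. In both groups the GABARAP subfamily held nearly all ATG8 transcript, 94.8% ± 0.17 in control and 95.2% ± 0.347 in knockdown libraries (SD, n = 3). The summed level of the 8 ATG8 symbols was 532, 547 and 564 FPKM in control and 300, 310 and 306 FPKM in knockdown libraries, or 0.557 of control by the means. Within that sum GABARAPL1 went from 17.0% ± 0.567 to 12.9% ± 0.257, while GABARAPL2 went from 13.9% ± 1.35 to 16.7% ± 1.08 and passed GABARAPL1 in the order of levels. GABARAP held 63.9% ± 0.868 and 65.6% ± 1.20, and MAP1LC3B 4.59% ± 0.211 and 4.59% ± 0.378. These shares describe the libraries and were not tested. The ratio of GABARAP to GABARAPL1 was 3.71, 3.87 and 3.70 in control and 4.96, 5.18 and 5.18 in knockdown libraries, with no overlap.

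**Figure D3:**
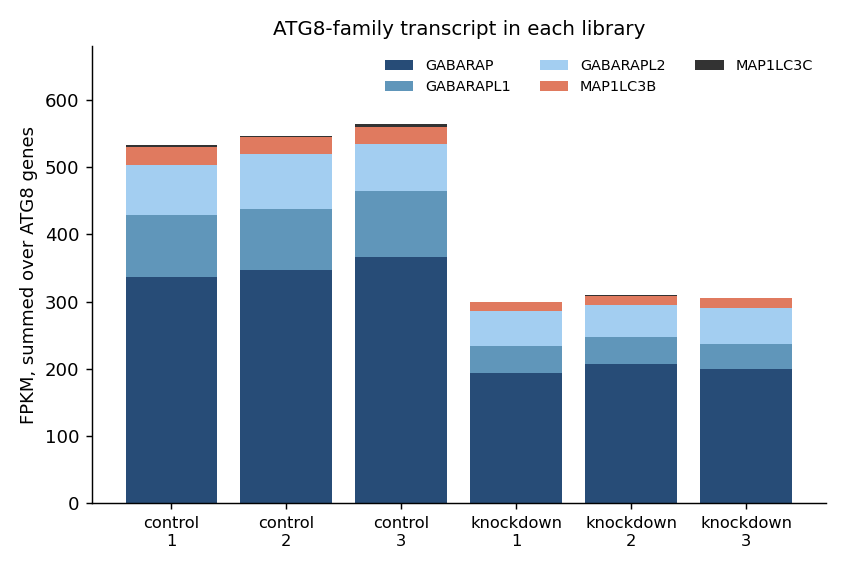
FPKM of ATG8-family genes stacked for each of the 6 libraries (vertical axis from 0); GABARAPL3, MAP1LC3A and MAP1LC3B2, at or below 0.488 FPKM, are left out. Bars reach 532 to 564 FPKM in control and 300 to 310 FPKM in knockdown libraries, with GABARAP the largest segment in each.

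The other ATG8 symbols were low. MAP1LC3C, an LC3 paralog, stood at 2.79, 2.28 and 3.43 FPKM in control and 0.235, 1.13 and 0.580 FPKM in knockdown libraries. It fell as well, with a log2 change of -1.24 (SE 0.203; limma adjusted p = 0.000884). MAP1LC3A, the other main LC3 gene, reached at most 0.488 FPKM and was at 0 in 3 of 6 libraries, GABARAPL3 reached 0.0792 FPKM, and MAP1LC3B2 reached 0.182 FPKM, so these 3 were under the filter and not tested.

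SQSTM1 (Entrez 8878, chr5:179233388-179265077, hg19), the receptor that links ubiquitinated cargo to ATG8 proteins, was the most abundant of the 10 genes. It stood at 337, 410 and 355 FPKM in control and 360, 354 and 347 FPKM in knockdown libraries. The knockdown libraries lay inside the control range, and control replicate 2 was the highest of all. The log2 change of -0.05 did not pass (95% interval -0.21 to 0.11; limma adjusted p = 0.557), and its sign turned to 0.033 without control replicate 2. The ratio of SQSTM1 to MAP1LC3B was 13.1, 16.7 and 14.2 in control and 26.3, 27.1 and 22.8 in knockdown libraries. It was higher in all 3 knockdown libraries, 1.74-fold by the means. The SQSTM1 locus shares 812 bases with C5orf45, at 3.29 ± 0.363 and 2.30 ± 0.553 FPKM, and 565 bases with MGAT4B, at 105 ± 4.07 and 85.7 ± 1.60 FPKM, and reads in those bases cannot be assigned either.

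By mean level the order in control libraries was SQSTM1, GABARAP, GABARAPL1, GABARAPL2, MAP1LC3B, BECN1, ATG5, ULK1, ATG7 and WIPI1. SQSTM1 and GABARAP overlapped there, as did ATG5 and ULK1, whereas the other neighbours in this order did not. In knockdown libraries SQSTM1 and GABARAP no longer overlapped. BECN1 and ATG5, at 21.2 ± 0.411 and 19.2 ± 0.391 FPKM, stood above MAP1LC3B, at 14.0 ± 1.11 FPKM, which had been the higher in control.

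The authors' deposited table, which has a single FPKM value per group, called 5 of the 10 genes lower at a false discovery rate under 0.05 and 0 higher. Of all its genes 22.1% were called, counting both directions. These 5 were ULK1, ATG7, GABARAP, GABARAPL1 and MAP1LC3B. ATG7 was called there on a wider locus than above, from 11314010 to 11762242, with a false discovery rate of 0.0205. The part of the overlapping gene VGLL4 in that call was not tested. For GABARAPL1 the authors' deposited table gave a log2 fold change of -1.14 and a false discovery rate of 0.000722. For GABARAPL2 the authors' deposited table gave -0.49 with a false discovery rate of 0.123, and it was not called there.

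The rest of the pathway was read from lists of 77 further autophagy genes, 74 of which were tested: 35 fell and 9 rose. These are 47.3% and 12.2% of the 74, against 37.9% lower and 25.6% higher among all tested genes. The lists were chosen with earlier results of these data known. Their shares, here and below, therefore describe the lists and do not test the pathway. After median scaling the shares among all tested genes were 31.6% lower and 31.9% higher, and each list below is to be read against these figures. The list counts that follow include those of the 10 genes that belong to the list. After median scaling of the libraries, which brings the median change of all genes near 0, all 84 tested pathway genes gave 15 higher and 36 lower, against 9 and 42 as deposited, and 29.4% against 17.6% of the calls were higher. For all tested genes the same scaling gave 50.3% of calls higher against 40.4% as deposited, and quantile normalization 52.4%. The median log2 change over all tested genes was -0.004 after median scaling, so small changes are best read against -0.09.

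Upstream, 3 of 5 ULK complex genes fell, ULK1 among them, and 1 rose, where 37.9% of all tested genes fell and 25.6% rose. ULK2, the close relative of ULK1, went from 5.78 ± 0.218 to 3.04 ± 0.386 FPKM (log2 change -0.75; limma adjusted p = 0.000198). C12orf44, which encodes the ATG13 partner ATG101, went the other way, from 27.9 ± 0.693 to 36.6 ± 1.16 FPKM (log2 change 0.38; limma adjusted p = 0.000246). In the BECN1 lipid-kinase complex 5 of 9 fell (55.6%, against 37.9% of all tested genes) and 0 rose, among them the catalytic subunit PIK3C3 (VPS34), from 7.78 ± 0.846 to 4.46 ± 0.0551 FPKM, and the BECN1 partner UVRAG, from 7.16 ± 0.466 to 4.60 ± 0.337 FPKM, with log2 changes of -0.68 and -0.54. Of 10 genes for lipid supply, which include the WIPI family, 7 fell and 1 rose (70% lower; 6 and 1 after median scaling, 7 and 2 after quantile normalization). The WIPI relative WDR45 went from 22.3 ± 1.44 to 10.1 ± 0.782 FPKM and the scramblase ATG9B from 2.74 ± 0.282 to 0.745 ± 0.172 FPKM, with log2 changes of -1.07 and -1.10.

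The ATG12 and ATG8 conjugation list was mixed, with 4 of 10 higher and 2 lower (4 and 1 after quantile normalization), against 25.6% higher and 37.9% lower among all tested genes. ATG3, the E2-like enzyme that receives ATG8 proteins from ATG7, went from 57.7 ± 5.26 to 72.6 ± 0.848 FPKM (log2 change 0.33; limma adjusted p = 0.00235). ATG10, the E2-like enzyme for ATG12, went from 4.97 ± 0.210 to 3.77 ± 0.503 FPKM (log2 change -0.33; limma adjusted p = 0.0169), a call that was lost after quantile normalization (-0.09; adjusted p = 0.426). By this test ATG7 was thus lower while ATG3, which acts directly after it, was higher. In the authors' deposited table ATG7 was called and ATG3 was not (false discovery rates 0.0205 and 0.184). The part of the overlapping gene VGLL4 in the fall of ATG7 was not tested.

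Among 13 cargo receptors 7 fell (53.8%, against 37.9% of all tested genes), and SQSTM1 was among those that did not pass; after median scaling 7 were lower and 2 higher. OPTN, optineurin, a receptor for ubiquitinated mitochondria and bacteria, changed most. It stood at 26.3, 27.9 and 28.6 FPKM in control and at 6.03, 5.58 and 5.42 FPKM in knockdown libraries. The groups were far apart, with a log2 change of -2.10 (SE 0.065; limma adjusted p = 4.39e-07). FAM134B, a receptor for endoplasmic reticulum, went from 7.31 ± 0.243 to 3.81 ± 0.767 FPKM (log2 change -0.80). Of 13 genes for autophagosome-lysosome fusion 8 fell (61.5%). After median scaling 4 were lower and 1 higher, and those 4 are 30.8% of the list, near the 31.6% of all tested genes. The tethering subunit VPS39 (log2 change -0.66) and the tether EPG5 (-0.60) changed most.

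Of 19 regulators 5 fell and 3 rose, 26.3% and 15.8%, both below the shares of all tested genes (37.9% and 25.6%). After median scaling 4 were lower and 6 higher (21.1% and 31.6%, against 31.6% and 31.9% of all tested genes). TFEB, the transcription factor best known for driving lysosomal and autophagy genes, stood at 5.57, 5.65 and 5.30 FPKM in control and 2.70, 2.63 and 2.67 FPKM in knockdown libraries, with no overlap (log2 change -0.83; limma adjusted p = 3.6e-05). MTOR, the kinase that restrains ULK1 when nutrients are plentiful, went from 11.9 ± 1.17 to 19.0 ± 0.412 FPKM. The lowest knockdown library, at 18.7 FPKM, was above the highest control library, at 13.2 FPKM (log2 change 0.64; limma adjusted p = 0.000128). Transcript levels do not give kinase activity, and no protein or flux measurement was analysed here. In the authors' deposited table OPTN, TFEB and MTOR passed a false discovery rate of 0.05, whereas C12orf44 (0.110), ATG3 (0.184), UVRAG (0.0938) and ATG10 (0.529) did not.

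**Figure D4:**
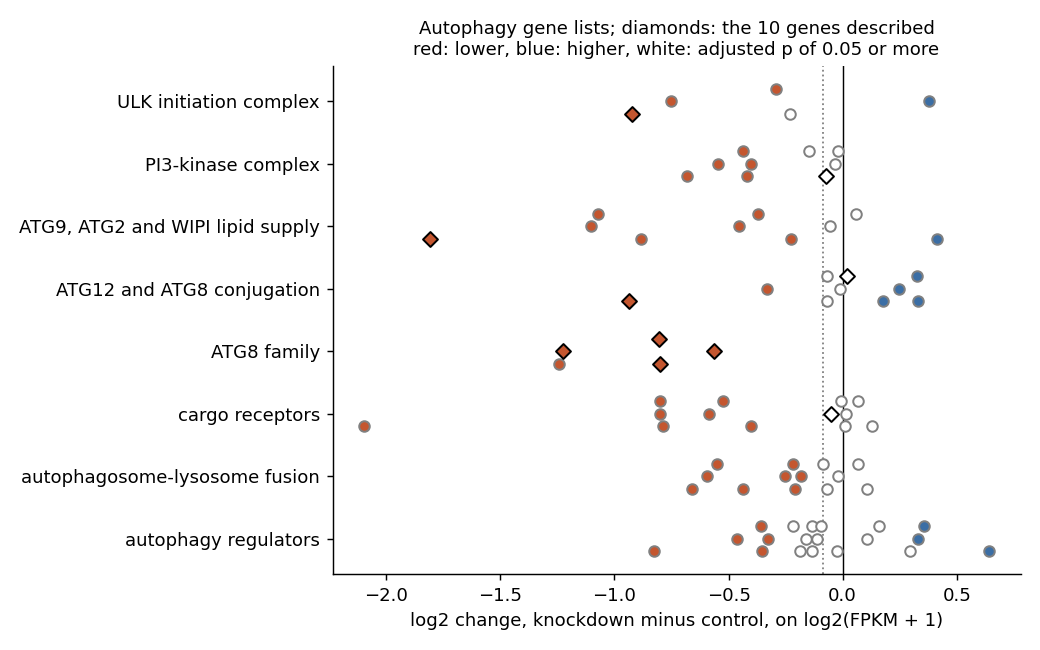
Log2 change (difference of mean log2(FPKM + 1), knockdown minus control) of each tested gene in 8 autophagy lists; diamonds are the 10 genes described, red passed as lower, blue as higher, and white did not pass. The ATG8 row lies wholly below 0, whereas the conjugation row spreads from ATG7 at -0.93 to ATG3 at 0.33.

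Promoter sequence was found in RefSeq (GRCh38.p14) for all 10 genes, in windows of 300 bases from 250 before to 50 after each start. 5 motifs were searched on both strands, chosen after the expression values had been seen. A forkhead core, TGTTTA, was among them because the targeted factor is a forkhead protein. It occurred in 12.3% of 35116 promoters and in 1 of the 10 genes, GABARAPL1, a share near that background. The background counts promoters, whereas the 10 are counted as genes, and SQSTM1 and ATG5 have several promoters each. The units of all motif shares here therefore differ. The 250 bases before the GABARAPL1 start (chr12:10212627-10212876, plus strand) are shown because they hold that match, in capitals at position -229 from the start.
GABARAPL1 promoter: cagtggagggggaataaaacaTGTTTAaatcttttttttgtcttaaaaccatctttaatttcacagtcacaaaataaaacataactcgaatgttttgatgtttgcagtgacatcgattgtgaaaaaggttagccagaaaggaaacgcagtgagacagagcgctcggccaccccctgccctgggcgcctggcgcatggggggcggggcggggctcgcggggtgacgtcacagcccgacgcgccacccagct
The TFEB-type palindrome TCACGTGA, in 0.98% of promoters, and the E-box CACGTG that lies within it, in 7.26%, occurred in 0 of the 10 genes. The antioxidant-response core TGACNNNGC, in 13.4% of promoters, occurred in MAP1LC3B, and the amino acid response core TGATGNAA, in 3.62%, in 0. A match is a description of these letters and is not a measured binding site.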

How the data were processed

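Libraries from A549 cells, 3 control and 3 FOXD3 knockdown, were compared. The authors deposited FPKM values, 1 table per library, per the file headers. Per the submitters' processing notes the tools were TopHat2 2.0.12, Bowtie, Cufflinks 2.0.2 and Cuffdiff and the build hg19, without saying which did what. Annotation, read length and strandedness: not given in the sources used here. A further deposited table gives the authors' FPKM per group, log2 fold change, p-value and false discovery rate, per the file headers; it was quoted and not used in any test. The tables list no gene at 0, so an unlisted symbol was set to 0, which can also be a failed estimate. Loci of a symbol were summed.

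Symbols with a mean of at least 0.5 FPKM were tested on log2(FPKM + 1) with limma 3.58.1 in R 4.3.3 (trended eBayes, two-sided p-values adjusted by Benjamini-Hochberg over all tested genes); no batch is labelled, so no covariate was used. FOXD3 and 3 ratios were tested by exact permutation (scipy 1.17.1). The p-values of the ratios are not given, because the ratios were chosen after the values had been seen. The fit was also run on simulated libraries with 200 changed genes. Far more genes passed in the real libraries, so that run does not show how the fit behaves on them. The 10 genes and the gene lists were chosen with earlier results of these data known. Besides the 10 genes, FOXD3 and all ATG8 symbols, the 2 called genes of each list with the largest absolute change were named, and the 3 genes nearest to the profile of the gene that changed most; VGLL4, C5orf45, MGAT4B and the cell markers were named for overlap or as checks. ATG8 coding sequences are the longest open reading frame of a GENCODE 29 transcript per gene, aligned globally with Biopython 1.88. Coordinates of genes are the authors' on hg19, written 1-based. Depth was sought from FPKM times length in 34 to 48 intronless genes of at least 1500 bases per library, as the spacing that best made the values whole, with the length reduced by 0, 150, 200 or 250 bases. The 4 choices disagreed for 2 libraries, so no depth was used in any result. The ratios, the motifs and the printed promoter were not part of the initial design. Alternatives covered the pseudocount, filter, scaling, summing of loci, eBayes settings, array weights and leaving out each library.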

Additional observations from a re-analysis of the deposited data

How the results depend on the processing

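Each of the 10 genes was refitted under 17 alternatives (16 for WIPI1, which a filter at 5 FPKM removed), 169 fits in all, and 0 of them changed side of the threshold: 7 were called lower and 0 higher under every alternative in which all 10 were tested. Ranges were -2.43 to -1.58 for WIPI1, -1.29 to -1.13 for GABARAPL1, -1.08 to -0.76 for ATG7, -0.99 to -0.83 for ULK1, -0.92 to -0.70 for GABARAP, -0.86 to -0.71 for MAP1LC3B and -0.63 to -0.47 for GABARAPL2 on the log2 scale. The genes that did not pass changed sign near 0: SQSTM1 came to 0.051 and BECN1 to 0.021 after median scaling, ATG5 to -0.014 with array weights, and without single libraries SQSTM1 ran from -0.11 to 0.033 and ATG5 from -0.042 to 0.061. The cause was not tested. Pathway genes called higher came to 15 after median scaling, and all genes called lower to 3295 with a filter at 5 FPKM, where fewer genes are tested. The difference in FOXD3 level kept its sign in 9 alternatives (-0.20 to -0.11 FPKM) with exact p from 0.1 to 0.2, a design too small to pass. No paired analysis was possible because the labels give no replicate numbers or pairing, and the numbers 1 to 3 used here only name the libraries. Without counts the precision of low genes such as WIPI1 and MAP1LC3C cannot be computed directly.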
